A study of Rattus norvegicus with 2 samples.

Results

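The heat shock proteins and co-chaperones described here are 10 genes, Cryab, Hspb1, Hspb8, Bag3, Hspa8, Dnajb1, Hsph1, Hsp90aa1, Hsp90ab1 and Hspd1. They were taken as the rows of the deposited result table whose gene symbol equals one of these names, and all 10 were found among its 17327 genes. The table compares cultured progenitor cells of the rat myometrium, the smooth muscle layer of the uterus, from DES-exposed animals with those from VEH-exposed animals. DES is the usual abbreviation of the synthetic estrogen diethylstilbestrol and VEH of the vehicle alone, and the exposure is described as developmental. Each group was 1 RNA-seq library (n = 1), for which the cells of 5 animals had been pooled and cultured for 1 to 3 passages. Both groups are thus cultured cells outside their tissue, and the animals of a pool cannot be told apart. The sources used here give no strain, age, dose or timing of the exposure.

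Molecular chaperones bind unfolded or newly made proteins and keep them from aggregating. Small heat shock proteins hold unfolding proteins without using ATP, the HSP70 machine folds them in cycles driven by J proteins and nucleotide exchange factors, and HSP90 completes the folding of clients such as steroid hormone receptors. Under heat or protein stress the transcription factor HSF1 binds heat shock elements, inverted repeats of a GAA unit, in the promoters of many of these genes. In muscle, small heat shock proteins and BAG3 are known for protecting desmin filaments and filamin from damage under tension.

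Whether DES or VEH stands on top of the deposited fold change is not stated, and no value settles it. The library whose reads raise the fold change is called the numerator library below and the other the denominator library, so a higher value in one library says nothing of DES itself. The reads of both libraries were recovered from the deposited means, with the deposited fold changes and errors where the mean alone left several possibilities. Recovered reads numbered 106599579 in the numerator and 104793348 in the denominator library. Folds compare reads divided by each library's size factor, with no pseudocount. A gene counted as higher or lower when its log2 ratio reached 2-fold with a pseudocount of 1, its mean was at least 20 normalised reads and the 95% counting interval of its ratio excluded 1. With 1 library per group no difference has a replicate check, no test was possible, and all intervals are 95% and cover counting error only.

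Of the 10 genes, 4 were at least 2-fold higher in the numerator library (Cryab, Hspb8, Hsph1 and Hspb1), 1 was lower (Bag3) and 5 stayed within 2-fold. Over all 11212 genes above the minimum, 13.9% were higher and 12.7% lower by the same rule, 26.7% in either direction. Since every one of the 10 genes was abundant, the lowest mean being 6272 normalised reads, abundant genes are the closer background. Among 3664 genes with a mean of at least 5000, 9.96% were higher and 6.71% lower, 16.7% in either direction. Of the 10 log2 ratios 9 lay above 0, beside 56.2% of these abundant genes, and the median of the 10 was 0.71, beside a median of 0.09. The 10 genes were chosen with earlier results of these data known, and the limit of 5000 after seeing the data. Another 105 chaperone genes, listed further below, had a median of 0.06. Levels are also given as RPM, reads per 1000000 reads of a library, and together the 10 genes took 3336 RPM in the numerator and 1974 RPM in the denominator library. Without Cryab the sums were 2410 numerator and 1888 denominator RPM. The 8 smooth muscle markers summed to 13642 numerator and 7888 denominator RPM, but 1 of them, Tagln, was higher by the 2-fold rule and 7 were within 2-fold. In bulk samples fewer cells of a type and less RNA per cell cannot be told apart.

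**Figure D1:**
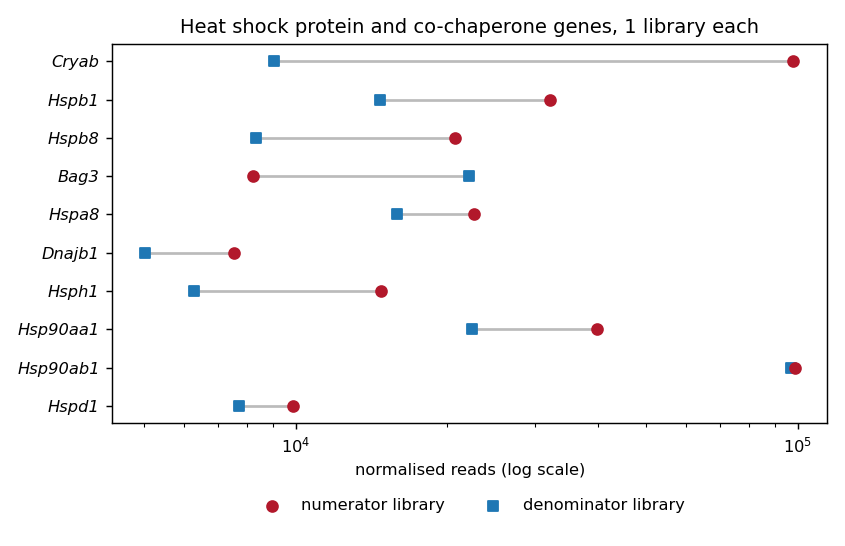
Normalised reads (log scale) of the 10 genes in the numerator library (red circles) and the denominator library (blue squares), 1 library each, with a grey line joining the 2 values of a gene. Cryab spans the widest gap, Bag3 alone has its red circle on the left, and the 2 values of Hsp90ab1 nearly coincide.

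RefSeq promoter sequences of the build GRCr8, 250 bases before to 50 after the annotated start, matched 8 of the 10 genes by symbol, without Cryab and Hsp90aa1. The promoters of the 4 genes beyond 2-fold that had an entry are printed here with that of Hspa8. Hspa8 stayed within 2-fold, and its window holds the longer motif at 2 places. Capitals mark letters that match the heat shock element motifs GAANNTTC and TTCNNGAA, runs of 2 units, or the overlapping runs of 3 units, GAANNTTCNNGAA and its reverse complement TTCNNGAANNTTC. Each strand is covered, since the 2-unit motifs are their own reverse complements. Sequences run 5′ to 3′ on the gene's strand.
Hsph1 (chr12:10427118-10427417, plus strand): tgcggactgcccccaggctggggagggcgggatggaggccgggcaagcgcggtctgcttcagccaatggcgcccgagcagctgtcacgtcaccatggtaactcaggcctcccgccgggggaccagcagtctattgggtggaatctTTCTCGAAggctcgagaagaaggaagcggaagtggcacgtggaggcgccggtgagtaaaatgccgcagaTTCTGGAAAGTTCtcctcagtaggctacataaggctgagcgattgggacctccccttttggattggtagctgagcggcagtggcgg
Hspb8 (chr12:45837058-45837357, plus strand): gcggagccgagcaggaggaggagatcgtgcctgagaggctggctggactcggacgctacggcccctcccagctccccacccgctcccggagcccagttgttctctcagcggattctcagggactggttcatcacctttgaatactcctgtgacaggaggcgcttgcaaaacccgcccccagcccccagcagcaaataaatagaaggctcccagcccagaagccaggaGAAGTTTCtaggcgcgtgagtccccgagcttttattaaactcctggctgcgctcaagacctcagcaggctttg
Hspb1 (chr12:26432252-26432551, minus strand): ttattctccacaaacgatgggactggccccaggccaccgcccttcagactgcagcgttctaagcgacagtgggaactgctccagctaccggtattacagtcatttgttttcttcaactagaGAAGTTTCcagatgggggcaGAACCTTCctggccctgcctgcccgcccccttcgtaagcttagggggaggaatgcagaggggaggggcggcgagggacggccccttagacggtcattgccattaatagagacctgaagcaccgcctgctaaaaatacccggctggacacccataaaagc
Bag3 (chr1:192533210-192533509, plus strand): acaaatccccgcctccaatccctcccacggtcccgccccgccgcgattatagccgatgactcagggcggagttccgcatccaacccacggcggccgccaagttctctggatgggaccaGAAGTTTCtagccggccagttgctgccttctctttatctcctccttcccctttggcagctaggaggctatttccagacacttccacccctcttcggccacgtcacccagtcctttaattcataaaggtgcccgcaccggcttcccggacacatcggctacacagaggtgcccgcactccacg
Hspa8 (chr8:50080264-50080563, plus strand): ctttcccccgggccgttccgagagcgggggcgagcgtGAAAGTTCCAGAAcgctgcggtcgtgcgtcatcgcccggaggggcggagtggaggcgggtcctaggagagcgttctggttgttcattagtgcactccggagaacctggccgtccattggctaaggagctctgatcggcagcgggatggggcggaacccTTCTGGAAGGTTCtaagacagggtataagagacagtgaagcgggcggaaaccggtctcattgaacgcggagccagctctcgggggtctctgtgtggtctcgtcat

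A 2-unit match was present in 7 of the 8 promoters, beside 15.9% of all 33469 promoters in the table. A 3-unit match was present in 3 of the 8, those of Hspa8, Hsph1 and Hspd1, beside 0.798% of all promoters. Relative to the annotated start, the 3-unit match of Hsph1 lay at -36 to -24 and those of Hspa8 at -213 to -201 and at -55 to -43. Hspd1 had a pair of overlapping 3-unit matches between -242 and -225. Hspb8 had a single 2-unit match at -23 to -16 and Bag3 one at -132 to -125, while Hspb1 had a pair, at -129 to -122 and -109 to -102. Dnajb1 had 2-unit matches at -11 to -4 and at 18 to 25, the latter downstream of the annotated start. Whether the annotated starts are those used in these cells was not tested. The window of Hsp90ab1 held none of these letters. Since 7 of the 8 promoters had a 2-unit match, genes higher, lower and within 2-fold all occur among those with a match. A relation of match to ratio was not tested. A match describes the letters of this window and was not tested as a binding site.

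**Figure D2:**
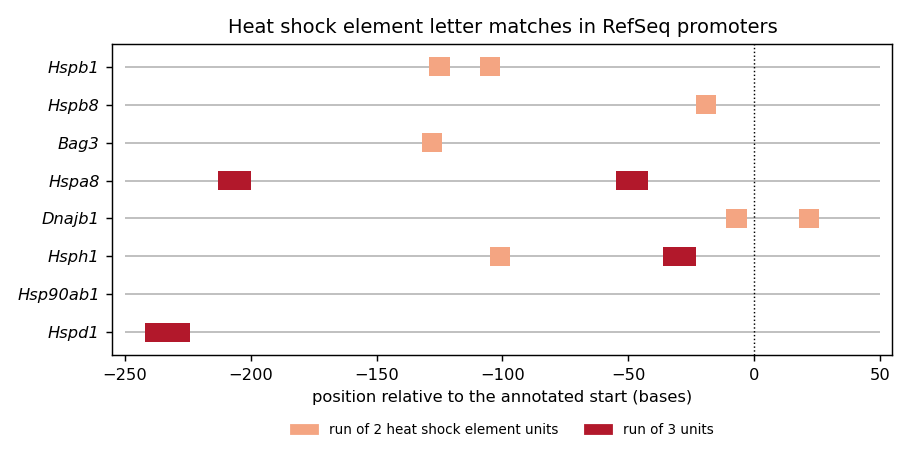
Positions of heat shock element letter matches (bases relative to the annotated start) in the RefSeq promoters of 8 genes, with runs of 2 units in orange and runs of 3 units in red. Runs of 3 units appear in Hspa8, Hsph1 and Hspd1, and Hsp90ab1 has no match in the window.

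Among the small heat shock proteins, Cryab had 98663 reads in the numerator and 8985 in the denominator library. It encodes alpha B-crystallin, which keeps desmin and other filament proteins soluble in muscle. It was 10.8-fold higher in the numerator library (counting interval 10.6 to 11.0), the widest gap of the 10 genes. Of the 11212 genes, 494 (4.41%) had a log2 ratio at least as large, and of the 3664 abundant genes 46 (1.26%) did.

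Hspb1, which encodes HSP27, an actin-associated chaperone that forms large oligomers, had 32361 reads in the numerator and 14628 in the denominator library. It was 2.17-fold higher (counting interval 2.13 to 2.22) and so lay just beyond the 2-fold limit. Hspb8, the partner of BAG3 in chaperone-assisted autophagy, had 20952 numerator and 8250 denominator reads and was 2.49-fold higher (counting interval 2.43 to 2.56). All 3 genes were thus higher in the same library, but by different amounts. The reads of Cryab relative to those of Hspb1 were 4.96-fold higher in the numerator library (counting interval 4.82 to 5.11), a comparison in which library scaling and gene length cancel.

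Not every gene of the family shared this direction. Of 10 small heat shock genes listed, 7 were above the minimum, of which 3 were higher, 0 lower and 4 within 2-fold, with a median log2 ratio of 0.28. The 3 higher genes are those just described. Of the 7 ratios 4 lay above 0 and 3 below, and 1 of the latter, Hspb11, was near even at -0.02. Below the minimum, Hspb3 had 28 numerator and 0 denominator reads, and Cryaa had 0 numerator and 3 denominator reads. Hspb7, a small heat shock protein of heart and muscle, had 3955 reads in the numerator and 5920 in the denominator library, 1.52-fold fewer after scaling. Hspb6, a phosphoprotein of smooth muscle, had 5894 numerator and 8087 denominator reads and a log2 ratio of -0.48; it and Hspb2 were named after their values were seen. Hspb2 is the next measured gene to Cryab on chromosome 8 and had 1750 numerator and 1414 denominator reads, so that Cryab reads relative to Hspb2 reads were 8.87-fold higher in the numerator library (counting interval 8.25 to 9.55).

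Bag3 was the 1 gene of the 10 that was lower in the numerator library. It encodes a nucleotide exchange factor of HSP70 that also binds HSPB8 and carries damaged filamin to autophagy. It had 8286 reads in the numerator and 21936 in the denominator library and was 2.70-fold lower (counting interval 2.63 to 2.76). Of the 11212 genes, 924 (8.24%) had a log2 ratio at least as low, and of the abundant genes 3.52% did. Hspb8 and Bag3, whose products form one complex, lay on opposite sides: Hspb8 reads relative to Bag3 reads were 6.72-fold higher in the numerator library (counting interval 6.49 to 6.97). For Hspb1 relative to Bag3 the same value was 5.86-fold and for Hspa8 relative to Bag3 it was 3.84-fold. These pairs were chosen after the values were seen.

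Of the other nucleotide exchange factors, Hsph1 was higher. It encodes HSP110, a large relative of HSP70 that releases ADP from it, and had 14913 reads in the numerator and 6235 in the denominator library. It was 2.35-fold higher (counting interval 2.28 to 2.42). Hspa4, a second HSP110 family gene, had 60004 numerator and 25087 denominator reads and was also 2.35-fold higher (counting interval 2.31 to 2.38). Bag2, an inhibitor of the ubiquitin ligase CHIP, had 13762 numerator and 7422 denominator reads, which is 1.82-fold more in the numerator library and within the limit. Of the 10 listed exchange factors, 2 were higher, 1 was lower and 7 were within 2-fold, with a median log2 ratio of 0.31.

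The core of the HSP70 machine differed less. Hspa8, which encodes the constitutive HSP70 of the cytosol, had 22894 reads in the numerator and 15793 in the denominator library, a fold of 1.42 (counting interval 1.40 to 1.45). Dnajb1, the J protein HSP40 that delivers substrates to it, had 7601 numerator and 4967 denominator reads, a log2 ratio of 0.59 (fold interval 1.45 to 1.56). Both lay above 1 and within 2-fold, and their reads kept nearly the same proportion: Dnajb1 relative to Hspa8 was 1.06-fold higher in the numerator library (counting interval 1.01 to 1.10). Hsph1 relative to Hspa8 was 1.65-fold higher (counting interval 1.59 to 1.71).

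In the wider HSP70 and HSP110 list, 3 of 12 measured genes were higher and 0 lower, with a median log2 ratio of 0.51. The third was Hspa12b, a distant HSP70 relative known from endothelial cells, with 933 reads in the numerator and 12 in the denominator library (76.4-fold higher, interval 43.5 to 148). Endothelial markers went the other way: the 4 of 6 markers above the minimum were all lower, and their summed level was 1.13 RPM in the numerator and 76.8 in the denominator library. Among the defining markers Cdh5 had 2 numerator and 2166 denominator reads and Kdr is listed at 0. Most of the denominator sum came from Esam, with 53.3 RPM, and Cdh5, with 20.7 RPM, while Pecam1 had 1.80 and Vwf 1.03 RPM there. The part of the endothelial markers in the Hspa12b difference was not tested. The stress-inducible HSP70 gene Hspa1b, named after its value was seen, had 4133 numerator and 2832 denominator reads (log2 ratio 0.52). Hspa1l, its testis-enriched neighbour, had 2695 numerator and 1815 denominator reads (log2 ratio 0.54). Hspa1a, Hspa1b and Hspa1l are close copies between which short reads can be split, so these values are uncertain.

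Of 18 measured J protein genes, 2 were higher and 1 was lower, with a median log2 ratio of 0.06. Dnajb4, a close relative of Dnajb1, had 18428 reads in the numerator and 7474 in the denominator library and was 2.42-fold higher (counting interval 2.36 to 2.49). Dnajc6, the clathrin-uncoating J protein auxilin, had 1989 numerator and 294 denominator reads (6.64-fold higher, interval 5.88 to 7.54). Dnajc12 had 112 numerator and 233 denominator reads and was 2.12-fold lower (counting interval 1.68 to 2.68), so its interval reaches inside the 2-fold limit. Dnaja1, a farnesylated J protein of the cytosol, had 25848 numerator and 13912 denominator reads, a fold of 1.82 within the limit.

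The HSP90 genes stayed within 2-fold, and the inducible form differed more than the constitutive one. Hsp90aa1, which encodes the stress-inducible HSP90 alpha, had 40276 reads in the numerator and 22291 in the denominator library, a fold of 1.77 (counting interval 1.75 to 1.80). Of the 10 genes it lay nearest below the 2-fold limit. Hsp90ab1, which encodes the constitutive HSP90 beta, had 99681 numerator and 96112 denominator reads, a fold of 1.02 (counting interval 1.01 to 1.03) and the smallest difference of the 10. Hsp90aa1 reads relative to Hsp90ab1 reads were 1.74-fold higher in the numerator library (counting interval 1.71 to 1.77).

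HSP90 and its co-chaperones, which also serve steroid hormone receptors, had 0 of 22 genes higher and 0 lower, with a median log2 ratio of 0.15 and a range of -0.53 to 0.83. Within the limit, Cdc37l1 had 3343 numerator and 1926 denominator reads (1.70-fold), and Ahsa1, the activator of the HSP90 ATPase, had 8703 numerator and 5198 denominator reads (1.64-fold). Stip1, the adaptor that links HSP70 to HSP90, had 19127 numerator and 12800 denominator reads (1.47-fold). Fkbp4 and Ptges3, co-chaperones of the steroid receptors that were named after their values were seen, had log2 ratios of -0.47 and -0.51. Fkbp5, Ppid and Ppp5c of the same list had -0.05, 0.06 and 0.18. Of the 22 ratios, 16 lay above 0 and 6 below.

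Hspd1 encodes HSP60, the chaperonin that folds proteins in mitochondria. It had 9976 reads in the numerator and 7633 in the denominator library, a fold of 1.28 (counting interval 1.25 to 1.32). Its neighbouring gene on chromosome 9 is Hspe1, which encodes the lid HSP10 and, named after its value was seen, had 6713 numerator and 5876 denominator reads. Hspd1 relative to Hspe1 was 1.14-fold higher in the numerator library (counting interval 1.09 to 1.20). Of 11 measured mitochondrial chaperone and protease genes 0 were higher and 0 lower, with a median of 0.07. The most different were Hscb, a J protein of iron-sulfur cluster assembly (1.71-fold lower), and Grpel1, the exchange factor of mitochondrial HSP70 (1.51-fold higher), both within the limit.

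**Figure D3:**
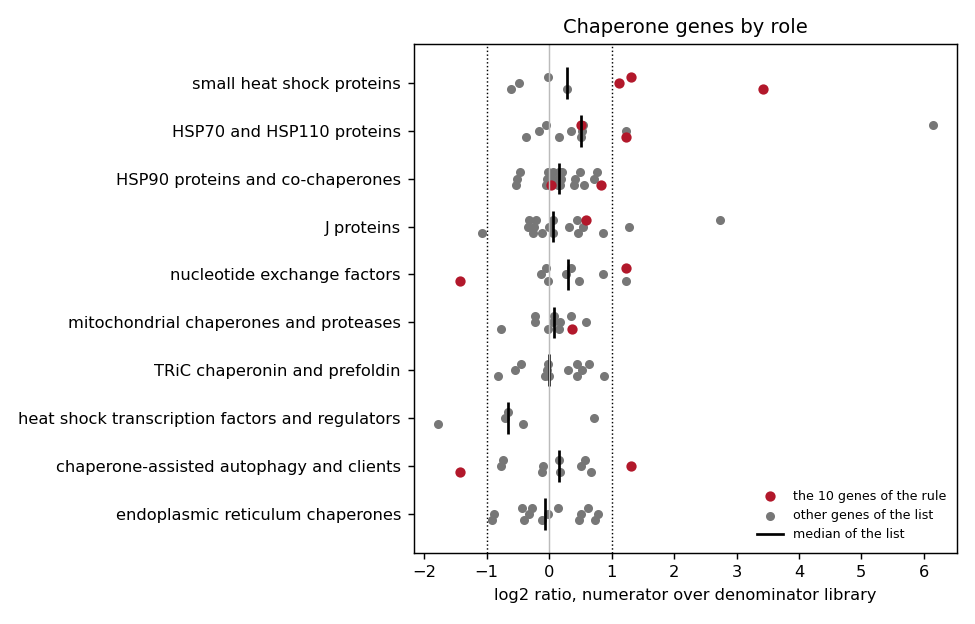
Log2 ratio (numerator over denominator library) of every measured gene in 10 chaperone lists, with the 10 genes described in red, other genes in grey, list medians as black bars and dotted lines at 2-fold. Most grey points lie between the dotted lines, and the heat shock transcription factor list has the lowest median, -0.66.

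Over all 10 lists, 115 different genes were above the minimum, of which 8 (6.96%) were higher and 3 (2.61%) lower. Outside the 10 genes described, 4 of 105 were higher (3.81%) and 2 lower (1.90%), with a median log2 ratio of 0.06. Of all 11212 genes 13.9% were higher and 12.7% lower. Of the 3664 abundant genes 9.96% were higher and 6.71% lower, with a median of 0.09. The listed genes were thus beyond 2-fold less often than either background. The lists were chosen with earlier results of these data known. The cytosolic chaperonin TRiC, which folds actin and tubulin, and its partner prefoldin had 0 of 13 genes higher and 0 lower, with a median of 0.01. Within the limit Cct8 was 1.83-fold and Cct3 1.55-fold higher, and Pfdn5 1.76-fold and Cct7 1.46-fold lower, so subunits of one complex lay on both sides of 1.

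The heat shock transcription factor list had 4 of 5 log2 ratios below 0 and a median of -0.66. Hsf1, which drives heat shock genes, had 2609 reads in the numerator and 4053 in the denominator library, 1.58-fold lower and within the limit. Hsf4, best known from the lens, had 411 numerator and 661 denominator reads (1.64-fold lower), and Hsbp1, a small protein that binds HSF1, had 27319 numerator and 16384 denominator reads (1.64-fold higher). Hsf2bp, a meiotic protein that binds HSF2, was the 1 lower gene of the list, with 54 numerator and 184 denominator reads (3.47-fold lower, interval 2.55 to 4.79). These ratios describe messenger levels, while HSF1 is known to be regulated largely as a protein, which was not measured.

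In the list of chaperone-assisted autophagy and its clients, Hspb8 was the 1 higher and Bag3 the 1 lower of 11 genes, with a median of 0.16. The autophagy receptor gene Sqstm1 had 29730 reads in the numerator and 48994 in the denominator library (1.68-fold lower), and Vim, the filament protein vimentin, had 586278 numerator and 987473 denominator reads (1.72-fold lower). Both were within the limit. The filament clients, named after their values were seen, were near even for Des, desmin, at a log2 ratio of -0.11, and at 0.50 for Flnc, filamin C. The chaperones of the endoplasmic reticulum had 0 of 14 genes higher and 0 lower, with a median of -0.06. Hsp90b1, the reticular HSP90 known as GRP94, had 308359 numerator and 571102 denominator reads and was 1.89-fold lower, the closest of this list to the limit. Dnajb9 was 1.84-fold lower, while Dnajb11 was 1.73-fold and the disulfide isomerase gene Pdia6 1.66-fold higher.

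**Figure D4:**
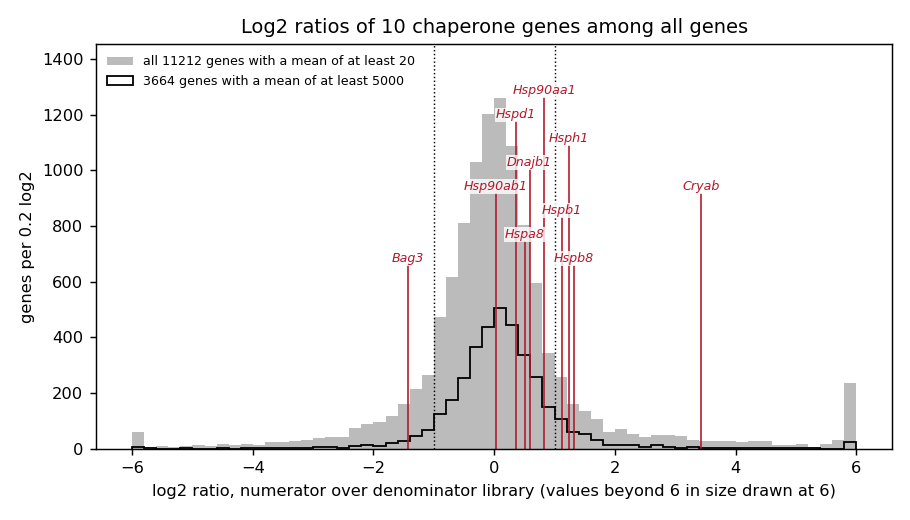
Number of genes per 0.2 of log2 ratio (numerator over denominator library) for all 11212 genes (grey) and the 3664 genes with a mean of at least 5000 (black outline), with the 10 chaperone genes as red lines and dotted lines at 2-fold. Cryab stands in the right flank at 3.43, Bag3 in the left flank at -1.43, and the other 8 lie between 0.03 and 1.32.

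Each gene was set beside the 20 nearest measured genes on either side in the GRCr8 order. Cryab and Hspa8 lie on chromosome 8, Hspb1, Hspb8 and Hsph1 on 12, Hsp90ab1 and Hspd1 on 9, Hsp90aa1 on 6, Dnajb1 on 19 and Bag3 on 1. Bag3 stands among genes of which most also had a ratio below 0, 33 of 40. Its 40 neighbours had a median log2 ratio of -0.85, and 15 of them were lower and 2 higher by the 2-fold rule. Of 9533 such windows over the genome, which overlap each other, 1.05% had a median as low. The segment from Il4r to Cdca5 on chromosome 1, which holds Bag3 and was delimited with these ratios known, had a median of -0.64 over its other 255 genes, of which 75 were lower and 14 higher, against a median of 0.07 over the other 1030 genes of the chromosome. The log2 ratio of Bag3 was 0.58 below the median of its neighbours, and 8 of the 40 had a ratio at least as low. The part of the neighbourhood in the Bag3 difference was not tested.

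For the 4 higher genes the neighbours lay nearer to 0. The median log2 ratio of the 40 neighbours was 0.28 for Cryab, 0.08 for Hspb1, 0.12 for Hspb8 and -0.26 for Hsph1. Cryab exceeded its neighbours' median by 3.15, with 3 of 40 neighbours at least as high. Hsph1 exceeded its by 1.49, Hspb8 by 1.20 and Hspb1 by 1.04, with 4, 5 and 2 of 40 neighbours at least as high. The genes next to Hsph1 on either side, Rxfp2 and Tex26, had log2 ratios of 1.66 and 1.44, above its own 1.23. The 349 placed genes of chromosome 12 had a median of 0.08. For the 5 genes within 2-fold the neighbours' medians lay between 0.02 (Dnajb1) and 0.25 (Hspd1).

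**Figure D5:**
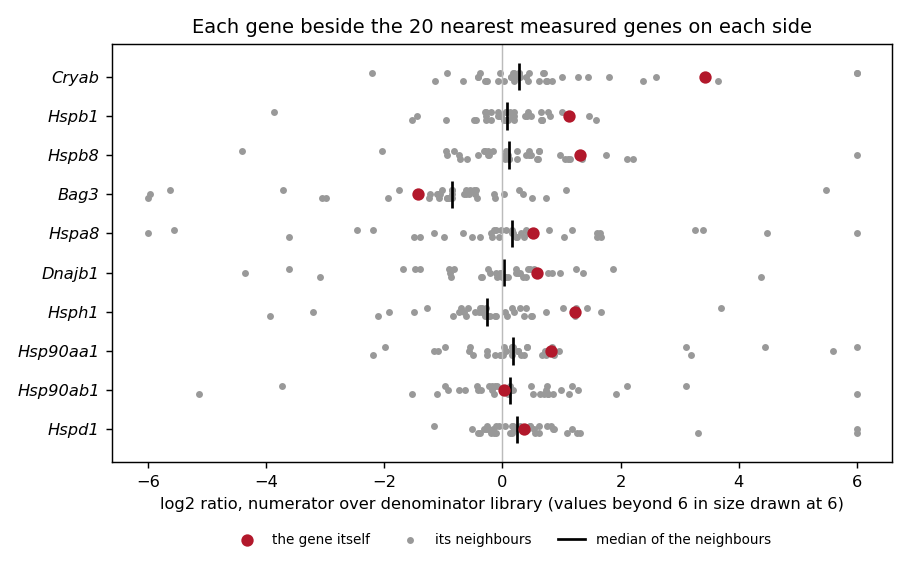
Log2 ratio (numerator over denominator library) of each of the 10 genes (red) beside its 40 nearest measured neighbours on the chromosome (grey) and their median (black bar). The neighbours of Bag3 are shifted to the left, with a median of -0.85, while the medians of the other 9 lie between -0.26 and 0.28.

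Reads of 4 of the 10 genes may be shared with copies elsewhere in the genome. RefSeq's GRCr8 annotation names 33 pseudogenes of Hspa8, 23 of Hsp90ab1, 20 of Hspd1 and 16 of Hsp90aa1, and 0 of Cryab, Hspb1, Hspb8, Hsph1, Dnajb1 and Bag3. The sources used here do not say how reads that match several places were counted, so the values of these 4 genes are uncertain. All 5 genes beyond 2-fold are among the 6 without a named pseudogene. Only pseudogenes named after their gene were counted, so copies under other names, if any, were missed and may also share reads.

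The labelled cell type was checked against its markers. All 8 smooth muscle markers were read in both libraries, among them Acta2 (smooth muscle actin) with 447541 reads in the numerator and 279748 in the denominator library. Of the 8, whose sums were given with the chaperone totals, 1 was higher and 0 lower, with a median log2 ratio of 0.61, and 6 of the 8 ratios lay above 0. Mesenchymal progenitor markers summed to 6586 numerator and 6290 denominator RPM, with 2 of 7 higher and 3 lower. Itgb1 was the largest part of both sums, with 4663 numerator and 2761 denominator RPM. The higher ones were Nt5e, with 42397 numerator and 6613 denominator reads, and Cd34, with 54 and 3. The lower ones were Thy1 (72779 numerator and 202443 denominator reads), Pdgfrb (37430 and 113127) and Eng (3431 and 14168). The similar sums thus do not show that the single progenitor markers matched. Summed levels were 28.5 numerator and 14.9 denominator RPM for epithelial, 2.80 numerator and 3.78 denominator RPM for macrophage and 34.4 numerator and 33.1 denominator RPM for skeletal and cardiac muscle markers, with Cdh1, Ptprc and Myod1 listed at 0. By the 2-fold rule 1 of 3 measured epithelial markers was higher and 1 lower, 1 of 3 macrophage markers was higher and 2 lower, and 1 of 3 muscle markers was higher and 1 lower. The muscle markers beyond 2-fold were Acta1, 6.12-fold higher, and Tnnt3, 9.48-fold lower. The part of the cell makeup in the chaperone differences was not tested.

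The authors' deposited table gives its own shrunken log2 fold changes, which had the same sign as all 10 ratios. The read pairs of the 10 genes were chosen with these fold changes and their errors, so the shared sign is no separate check. In the authors' deposited table Cryab had a log2 fold change of 2.52 with a standard error of 1.09 and an unadjusted p-value of 0.0213, and Bag3 one of -1.25 with a standard error of 0.832. The adjusted p-values in the authors' deposited table, made by DESeq2 without replicates, were 0.999 or above for all 10 genes and all others.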

How the data were processed

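RNA was sequenced in 1 library per group as single reads of 36 bp, per the labels' protocols. The submitters' processing notes name DESeq2, featureCounts, TopHat, SAMtools and FastQC as the authors' tools, and the builds rn5 and rn4. The sources used here give no version, setting or use of strand, so reads of overlapping or antisense genes may be mixed. Per the file headers, the columns are those of the authors' DESeq2 result. The deposited mean is a signal, read counts divided by size factors and averaged over both libraries. The fold change was deposited on a log2 scale, shrunken towards 0, as was its error. The score in the deposited statistic column is their quotient. The p-values and adjusted p-values are the authors' own.

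Reads were recovered because each mean is a sum of whole reads of both libraries times fixed steps, with size factors of 1.01 (numerator) and 0.991 (denominator). For 9307 of 13221 genes above 0 only 1 pair of whole numbers was possible. For the other 3914, the 10 genes described included, the pair chosen was the one for which a shrunken negative binomial fit returned the deposited standard error. In 52 genes with a deposited fold change under 0.01 in size, or with no possible fit, the pair with the nearest ratio was taken. For the 10 genes, which had 2 to 37 possible pairs, the chosen pair missed the standard error by at most 1.08e-05 and the next best by at least 0.0333. Intervals are exact Clopper-Pearson intervals of the share of reads; those of a change in the ratio of 2 genes are Wald intervals on the log scale. Without molecular identifiers, reads of a PCR-enriched library are not independent molecules. Levels are not compared between genes, since transcript lengths were not used here. Of each list, the 4 genes with the largest ratio in size above the minimum were named; Python 3.11.15, numpy 2.4.6 and scipy 1.17.1 were used. The 10 genes, the lists and the rules were chosen with earlier results of these data known. Alternatives for pseudocount, minimum, fold limit, scaling, deposited fold change and possible pairs were computed.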

Additional observations from a re-analysis of the deposited data

How the results depend on the processing

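No paired analysis was possible because each group has 1 library, and no replicate could be left out. Under pseudocounts of 0.5 and 10, no minimum, a minimum mean of 100 and both other scalings, which moved ratios by 0.0014 and 0.0087 (log2), 4 of the 10 genes were higher and 1 lower as in the report. Of all 11212 genes, 1562 were higher and 1432 lower with a pseudocount of 0.5, and 1515 and 1387 with one of 10. With no minimum 2000 of 13221 genes were higher and 1646 lower. A minimum of 100, which leaves fewer genes, gave 1179 higher and 1181 lower. In the lists, 4 in place of 3 small heat shock genes were higher with no minimum, and the chaperonin median was 0.16 in place of 0.01 with a minimum of 100, which leaves fewer genes; the other list counts were equal, and the other medians moved by at most 0.0087. With the authors' deposited shrunken fold change, log2 values were 2.52 for Cryab, 1.0005 for Hspb1, 1.16 for Hspb8, 0.47 for Hspa8, 0.75 for Hsp90aa1, 1.09 for Hsph1 and -1.25 for Bag3, smaller in size by the construction of the shrinkage, and 0 J protein genes were lower. With a limit of 1.5-fold, 6 of the 10 genes were higher and 1 lower, beside 2534 higher and 2553 lower of all 11212 genes above the minimum. Lists then had, higher and lower, 3 and 1 small heat shock genes, 3 and 0 HSP90 genes, 4 and 1 J protein genes, 1 and 1 mitochondrial genes, 2 and 1 chaperonin genes, 1 and 3 heat shock factor genes, 2 and 3 autophagy genes and 3 and 2 reticular genes. With only the genes that have 1 possible pair, none of the 10 genes is left; 0 small heat shock genes, 1 HSP70 gene, 1 J protein gene and 0 exchange factors were higher and 0 exchange factors lower, since fewer genes are counted. With a minimum mean of 5000, chosen after seeing the data, 365 genes were higher and 246 lower, with 1 J protein gene higher, 0 lower and 0 heat shock factor genes lower. At the depth of these libraries counting error is small for the 10 genes; how much cultures or animals vary is unknown.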
